A study of Mus musculus with 8 samples.

Results

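Autophagy, the process by which a cell encloses part of its own content in a membrane and breaks it down in the lysosome, was followed here through 10 of its genes: Ulk1, Becn1, Wipi1, Atg7, Atg5, Map1lc3a, Map1lc3b, Gabarapl1, Sqstm1 and Nbr1. They were chosen by name, as genes that carry the main steps of the pathway, and not by a rule on measured values. Earlier results of these data were known when they were chosen. The transcript accession of each array probe was looked up in a RefSeq gene table, and 16 probes led to these 10 of the 18749 genes found on the array. Of those 16 probes 1 was used for each gene, and all 10 genes were among the 14137 genes tested. RNA came from whole No. 4 mammary glands taken at lactation day 1 from 4 wild-type (WT) and 4 Th-POK-deficient (KO) dams of the C57/Bl6 strain, all untreated as far as the labels say. Th-POK, encoded by Zbtb7b, is a zinc finger transcription factor known for directing T cell precursors to the CD4 lineage, and the study asked what its loss does to the gland at the onset of lactation. The methods name no deletion restricted to the epithelium, females were matched for age, and their age at sampling is not given in the sources used here. Each dam had a one-colour Agilent array of its own, so the measurement is the brightness of a probe, given below as log2 signal after quantile normalization between the 8 arrays, and differences are KO minus WT on the log2 scale.

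Autophagy runs in steps. The ULK1 kinase complex starts it, a lipid kinase complex built around Beclin 1 marks the membrane, WIPI proteins read that mark, and 2 ubiquitin-like conjugation systems attach proteins of the ATG8 family, LC3 and GABARAP, to the growing membrane, where cargo receptors dock. The kinase mTOR holds the pathway back when nutrients and insulin are ample, AMPK releases it, and the transcription factors TFEB and FOXO raise the transcription of its genes. In the mammary gland the pathway is best known from involution, when milk-producing cells are removed after weaning.

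The stretches of DNA just before the transcription start are shown for Ulk1 and Gabarapl1, because these are the genes of the 10 that passed the test below. They are from RefSeq, build GRCm38.p6, read 5′ to 3′ on the strand of the gene, 250 bases ending next to the start, with capitals for each GC box (GGGCGG or, on the other strand, CCGCCC). The Ulk1 stretch lies at chr5:110810082-110810331 on the minus strand and the Gabarapl1 stretch at chr6:129532942-129533191 on the plus strand.
Ulk1: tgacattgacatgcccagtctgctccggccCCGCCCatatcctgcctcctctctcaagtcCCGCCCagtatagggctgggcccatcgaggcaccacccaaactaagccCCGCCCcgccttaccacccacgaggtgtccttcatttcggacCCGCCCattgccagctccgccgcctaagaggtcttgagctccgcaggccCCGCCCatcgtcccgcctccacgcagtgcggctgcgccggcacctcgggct
Gabarapl1: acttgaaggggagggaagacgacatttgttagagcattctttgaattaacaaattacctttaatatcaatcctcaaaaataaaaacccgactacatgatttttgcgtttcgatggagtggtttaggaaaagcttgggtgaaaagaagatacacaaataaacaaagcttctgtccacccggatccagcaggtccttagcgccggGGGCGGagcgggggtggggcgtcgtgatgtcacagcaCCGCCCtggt
The Ulk1 stretch held 5 GC boxes and the Gabarapl1 stretch 2, and the 300-base window from 250 bases before to 50 after the start was 68.0% G or C for Ulk1 and 46.3% for Gabarapl1, against a median of 52.7% over all windows. Windows were given for 8 of the 10 genes, 9 windows in all because Nbr1 had 2. A GC box was found in 7 of the 9 windows and in 35.7% of the 32851 windows of all genes.

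Letters read by factors that act on autophagy genes were searched in the same windows on both strands. The E-box CACGTG, the core that TFEB and many other factors read, occurred in the windows of Atg5 and Atg7 and in 7.15% of all windows. TCACGTGA, the longer form in which TFEB is known to read the E-box and which contains it, occurred in none of the 9 windows and in 0.974% of all. The FOXO letters GTAAACA also occurred in none of the 9, against 3.65% of all. Only this exact spelling was searched, and variants of it were not. The antioxidant response letters TGACNNNGC occurred in the Map1lc3b window and in 12.4% of all. The 3 matches are shown with their neighbouring bases and the matched letters in capitals, at chr6:114670952-114670981 for Atg7, chr10:44268313-44268342 for Atg5 and chr8:121590432-121590461 for Map1lc3b, each on the plus strand of GRCm38.p6.
Atg7: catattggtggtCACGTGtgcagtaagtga
Atg5: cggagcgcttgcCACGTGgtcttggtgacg
Map1lc3b: gcgagtcaccTGACTCGGCtgcggactgag
The Atg5 match began 14 bases before the start, the Atg7 match 132 bases before it, and the Map1lc3b match at base 5 of the transcript. A match of letters is a description of the sequence and not a site shown to be bound.

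The targeted gene was checked first. Zbtb7b gave 9.90, 10.42, 10.13 and 10.23 in WT1 to WT4 and 1.55, 1.56, 1.65 and 1.6 in KO1 to KO4. It was not well above background on any KO array, so its fold is given as a lower bound. On this scale its signal was at least 81.5-fold lower in KO than in WT. The fitted difference was -8.58 (limma, Benjamini-Hochberg adjusted p = 5.71e-09), and it depended on the background correction, with -4.23 under normexp. Between 67.1% and 75.6% of the spots on an array were well above background, WT1 having the most, and no spot was saturated. The 4 WT arrays were on 1 slide and the 4 KO arrays on another, so genotype and slide cannot be told apart. The epithelial genes of the milk-producing gland were bright on all arrays, with beta-casein (Csn2) between 17.69 and 17.81 in WT.

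Of the 10 genes, Gabarapl1 and Ulk1 rose in the KO glands, none fell, and 8 did not pass the test. Over all genes tested, 16.5% passed at an adjusted p under 0.05 (limma, Benjamini-Hochberg over 14137 genes), 7.53% as higher and 8.96% as lower in KO, so 2 of 10 is close to the share of all genes. An unadjusted p under 0.05 (limma) was found for 5 of the 10 and for 5136 of the 14137 genes tested. The difference was above 0 for 6 genes and below 0 for 4, with a median of 0.31 against -0.02 over all genes tested. The 4 KO values lay wholly above the 4 WT values for Gabarapl1, Ulk1 and Wipi1 and wholly below them for Atg5. Such separation in either direction occurred in 24.1% of all genes, with KO above WT in 11.1% and KO below WT in 12.9%. In RNA from a whole gland, fewer cells of a type and less RNA per cell cannot be told apart.

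**Figure D1:**
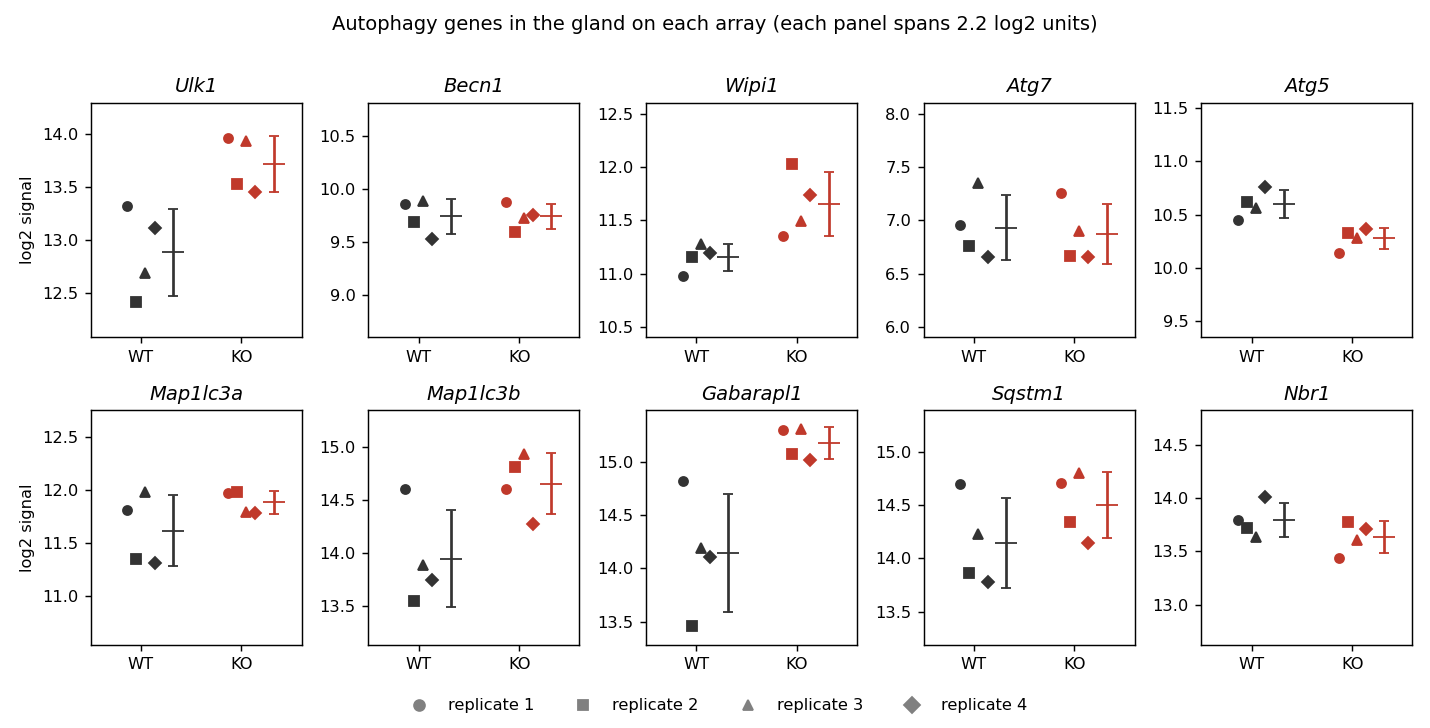
Log2 signal of the 10 autophagy genes on each of the 8 arrays, WT in black and KO in red, with a marker shape for each replicate number and, beside the points, the mean and SD of 4 arrays. The KO points of Gabarapl1 (15.02 to 15.31), Ulk1 (13.45 to 13.96) and Wipi1 (11.35 to 12.03) lie above all their WT points, those of Atg5 (10.14 to 10.36) below, and the remaining 6 genes overlap.

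Ulk1 encodes the kinase that starts autophagy and that both AMPK and mTOR phosphorylate. Its signal was 13.32, 12.42, 12.69 and 13.11 in WT1 to WT4 and 13.96, 13.53, 13.93 and 13.45 in KO1 to KO4. The lowest KO array was still above the highest WT array, and the WT arrays were the more widely spread. The mean went from 12.89 ± 0.41 (SD, n = 4) to 13.72 ± 0.26 (SD, n = 4), a difference of 0.83 (SE 0.22, 95% interval 0.33 to 1.33). On a linear scale this is 1.78-fold, with an interval of 1.26 to 2.51, and the adjusted p was 0.0372 (limma). A further Ulk1 probe, A_52_P630883, gave 11.27, 10.60, 10.61 and 10.98 in WT and 11.60, 11.20, 11.52 and 11.21 in KO. It differed in the same direction by 0.51 (SE 0.18), its genotypes overlapped through WT1, and it did not pass the test over all probes (limma adjusted p = 0.0847). The call of Ulk1 was lost without WT2 (limma adjusted p = 0.0868), WT3 (0.0877), KO1 (0.0919), KO2 (0.0657) or KO3 (0.0994), and also with the mean of its probes (0.0511), with no filter on dim probes (0.0562), in the methods' t-test (0.0766) and with slide position as a block (0.101). Its direction was the same in all 17 alternatives, with differences from 0.67 to 0.98, though several of these could not have reversed it.

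Becn1 encodes Beclin 1, a subunit of the class III lipid kinase complex that marks the forming membrane. Its signal was 9.86, 9.69, 9.89 and 9.53 in WT and 9.88, 9.60, 9.73 and 9.76 in KO. The 2 genotypes covered the same range, both with a mean of 9.74. The difference was 0.00 with a 95% interval of -0.26 to 0.26 (limma adjusted p = 1), so a change of the size seen for Ulk1 lies outside the interval. Wipi1 encodes a protein that binds the lipid mark and helps to bring the conjugation machinery to it. The arrays gave 10.98, 11.16, 11.28 and 11.19 in WT and 11.35, 12.03, 11.49 and 11.74 in KO, with no overlap and KO2 the highest. Wipi1 differed by 0.50 (SE 0.16, 95% interval 0.14 to 0.86), 1.42-fold, and did not pass the test (limma adjusted p = 0.0593). The further Wipi1 probe, A_52_P678969, showed the same order, with WT values from 9.82 to 10.02 and KO values from 10.21 to 10.77, a difference of 0.49 (SE 0.14) and an adjusted p over all probes of 0.0543 (limma).

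Neither of the conjugation genes had a difference above 0. ATG7 is the enzyme that activates both ubiquitin-like systems, and ATG5 is the protein that receives ATG12 and then helps to place the ATG8 proteins on the membrane. Atg5 gave 10.45, 10.62, 10.56 and 10.76 in WT and 10.14, 10.33, 10.28 and 10.36 in KO. Each KO array lay below each WT array, by a small margin with narrow groups. The mean went from 10.60 ± 0.13 to 10.28 ± 0.10 (SD, n = 4 each), a difference of -0.32 (SE 0.10, 95% interval -0.56 to -0.08), and a KO to WT ratio of 0.801. It did not pass the test with all arrays (limma adjusted p = 0.0654) and did without WT1 (-0.37, limma adjusted p = 0.0487). Leaving out any other single array gave adjusted p-values from 0.076 to 0.151 (limma). Atg7 gave 6.96, 6.76, 7.35 and 6.66 in WT and 7.26, 6.67, 6.90 and 6.66 in KO. Its genotypes overlapped fully, with a difference of -0.06 (95% interval -0.49 to 0.38, limma adjusted p = 0.85).

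The ATG8 family proteins are the ones attached to the membrane, and their lipid-bound forms are the usual protein measure of autophagy, which an mRNA level does not replace. Gabarapl1 gave 14.82, 13.46, 14.19 and 14.11 in WT1 to WT4 and 15.30, 15.08, 15.31 and 15.02 in KO1 to KO4. All KO arrays lay above all WT arrays and close together, while WT2 was low and WT1 high within WT. The mean went from 14.14 ± 0.55 to 15.18 ± 0.15 (SD, n = 4 each), a difference of 1.03 (SE 0.25, 95% interval 0.46 to 1.61). This is 2.05-fold, with an interval of 1.37 to 3.06, the largest difference among the 10 genes (limma adjusted p = 0.0312). A further probe, A_51_P304757, gave 8.84, 7.58, 8.77 and 8.48 in WT and 9.42, 8.72, 9.13 and 9.0 in KO. It had the same direction, 0.65 (SE 0.28), and overlapping genotypes, and it passed with the replicate number as a block (limma adjusted p = 0.0433) but not without it (0.138). The call of Gabarapl1 was lost without WT2 (difference 0.81, limma adjusted p = 0.0527), WT3 (0.0673), WT4 (0.058), KO1 (0.0764), KO2 (0.0649) or KO3 (0.0855), and with the mean of its probes (0.0581), in the methods' t-test (0.0694) and with slide position as a block (0.0911). Its direction held in all 17 alternatives, with differences from 0.81 to 1.26, though several of these could not have reversed it.

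Map1lc3b encodes LC3B, the ATG8 protein most used to mark autophagosomes. It gave 14.60, 13.55, 13.89 and 13.75 in WT and 14.60, 14.81, 14.93 and 14.27 in KO. WT1 stood with the KO arrays, and the other 3 WT arrays lay below all 4 KO arrays. Map1lc3b differed by 0.70 (SE 0.24, 95% interval 0.15 to 1.25), 1.63-fold, and did not pass the test (limma adjusted p = 0.0752). Without WT1 it did (0.92, limma adjusted p = 0.0171). Without any other single array it did not, with adjusted p-values from 0.056 to 0.184 (limma). A further Map1lc3b probe, A_52_P563475, gave 0.24 (limma adjusted p over all probes 0.458), with WT values from 13.27 to 14.04 and KO values from 13.45 to 14.12. Map1lc3a encodes LC3A, and its arrays gave 11.81, 11.35, 11.98 and 11.31 in WT and 11.97, 11.98, 11.79 and 11.78 in KO. The KO arrays lay at the upper end of the WT range. The difference was 0.27 (95% interval -0.11 to 0.65, limma adjusted p = 0.273).

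Sqstm1 and Nbr1 encode p62 and NBR1, receptors that hold ubiquitin-tagged cargo and bind ATG8 proteins, and are themselves degraded with the cargo. Sqstm1 gave 14.70, 13.86, 14.23 and 13.78 in WT and 14.71, 14.34, 14.80 and 14.14 in KO. The genotypes overlapped through WT1 and WT3, and the difference was 0.36 (95% interval -0.17 to 0.89, limma adjusted p = 0.298). Nbr1 gave 13.80, 13.72, 13.64 and 14.01 in WT and 13.44, 13.78, 13.61 and 13.71 in KO. WT4 was the highest and KO1 the lowest, with the others mixed. The difference was -0.16 (95% interval -0.43 to 0.12, limma adjusted p = 0.378). Its other 2 probes gave -0.30 (limma adjusted p over all probes 0.193) and -0.23 (0.299), so the 3 Nbr1 probes shared a direction and none passed.

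**Figure D2:**
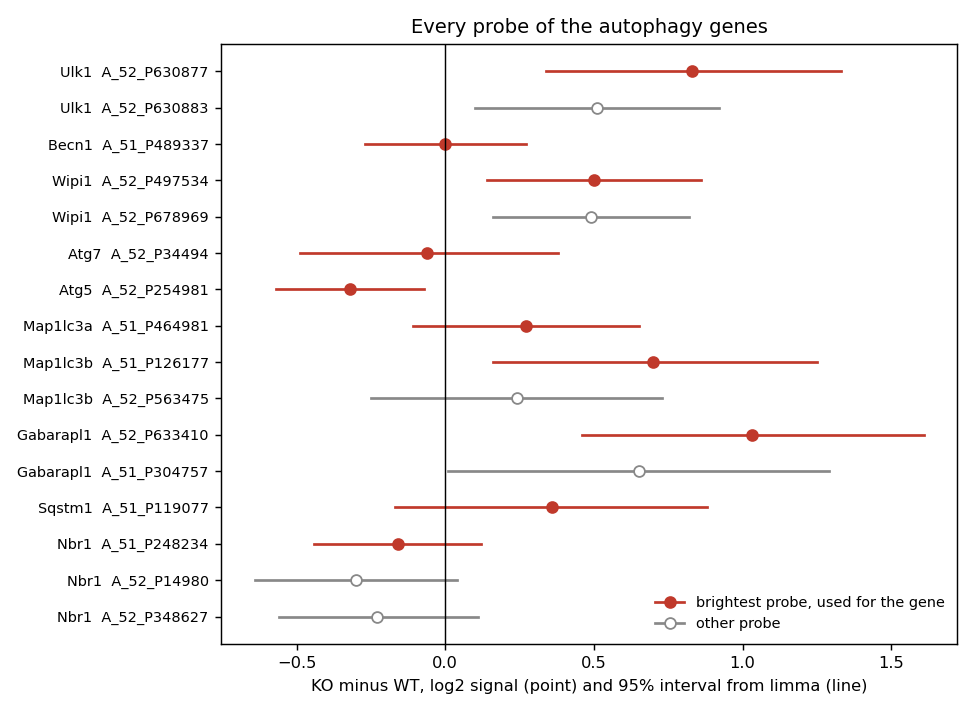
Difference between KO and WT in log2 signal for all 16 probes of the 10 autophagy genes, as the limma estimate (point) and its 95% interval (line); red points are the probes that stand for a gene and open points the 6 other probes. The probes of Ulk1, Wipi1, Map1lc3b and Gabarapl1 lie right of 0 and those of Nbr1 left of it, and the further Map1lc3b probe, at 0.24, has an interval that includes 0.

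The 6 other probes are separate from the ones the gene values rest on, although they read the same RNA on the same arrays. None of them passed at an adjusted p under 0.05, and each had the sign of the probe that stands for its gene. For Ulk1, Map1lc3b and Gabarapl1 the further probe gave a smaller difference, 0.51 against 0.83, 0.24 against 0.70 and 0.65 against 1.03. The levels of different probes cannot be set against each other, so these are comparisons of differences only.

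Which array of a genotype was highest or lowest differed between the genes. In WT, WT1 and WT3 were each the highest for 4 of the 10 genes, WT4 for 2 and WT2 for none, and the lowest was WT4 for 4, WT2 for 3, WT1 for 2 and WT3 for 1. In KO, KO1, KO2 and KO3 were each the highest for 3 and KO4 for 1, and the lowest was KO4 for 6, KO1 for 3, KO2 for 1 and KO3 for none. Ulk1, Map1lc3b and Gabarapl1 had WT1 as their highest and WT2 as their lowest WT array. The replicate numbers occur in both genotypes, and the deviations of arrays of the same number correlated weakly, as given below. Each KO array was therefore also set against the WT array of its number. This pairing was taken from these same data and is not stated in the sources used here. Gabarapl1 was higher in 4 of 4 such pairs, by 0.48, 1.62, 1.12 and 0.91. Ulk1 was higher in 4 of 4 as well, by 0.64, 1.11, 1.23 and 0.34, and so were Wipi1 and Sqstm1. Atg5 was lower in 4 of 4, by between 0.28 and 0.40. For Gabarapl1, Ulk1, Wipi1 and Atg5, whose genotypes did not overlap, any pairing of the arrays gives 4 of 4. For these genes the count of pairs therefore adds nothing to the separation already given. Map1lc3b differed by 0.00 in the first pair and by 1.26, 1.04 and 0.51 in the others. With the number as a block, Gabarapl1 and Ulk1 were again the members that passed.

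**Figure D3:**
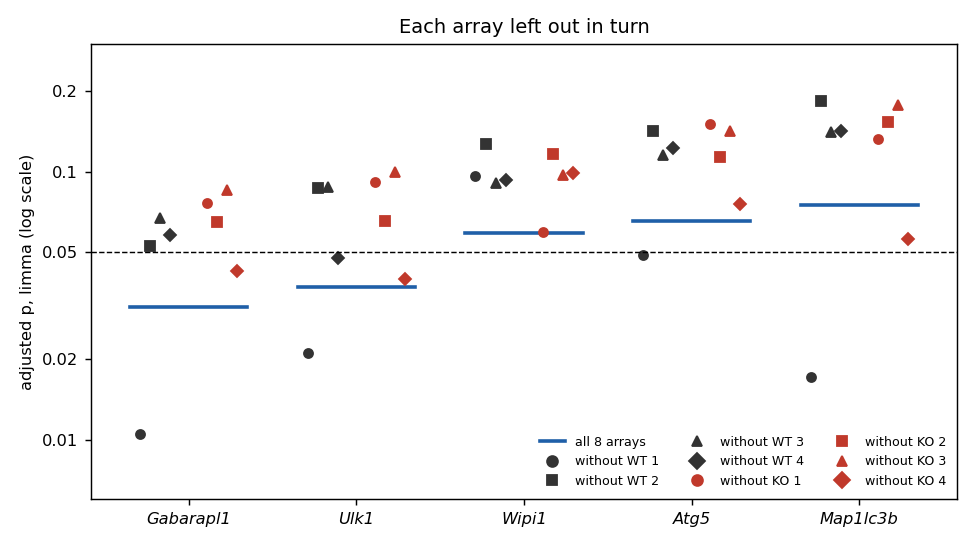
Benjamini-Hochberg adjusted p from limma, on a log scale, for the 5 autophagy genes with an unadjusted p under 0.05, with all 8 arrays (blue line) and with each array left out in turn (black for WT, red for KO, shapes for replicate numbers); the dashed line is 0.05. Gabarapl1 ranges from 0.0105 to 0.0855 and Ulk1 from 0.0211 to 0.0994, and Map1lc3b and Atg5 go under the line without WT1, at 0.0171 and 0.0487.

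The number of calls moved with single arrays, for these genes and over all genes. Without WT2, WT3, KO1, KO2 or KO3, none of the 10 genes passed (limma, with between 4 and 6 of them at an unadjusted p under 0.05), and over all genes the count went from 2331 to 767, 983, 756, 946 and 515. In these fits between 3868 and 4487 of all genes had an unadjusted p under 0.05. Without WT1, 4 of the 10 passed and 3070 of all genes, and without WT4 it was 1 of the 10 and 1821 genes.

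Markers of several cell types also differed in these whole-gland samples. Of 9 genes of luminal and alveolar epithelium, the cells that make milk, Krt18 (0.67, limma adjusted p = 0.0349) and Epcam (0.52, 0.0403) rose. None passed as lower, with 7 of the 9 above 0 and 2 below, Lalba (-0.45, limma adjusted p = 0.197) and Elf5 (-0.35, 0.107). The mean log2 signal of the 9 was 16.03 to 16.16 over the WT arrays and 16.16 to 16.29 over the KO arrays. Of 6 neutrophil genes, 4 were well above background on all arrays, and of these Ltf, which is also a milk protein, rose (1.31, limma adjusted p = 0.0066), with a mean over the 4 of 10.09 to 11.26 in WT and 11.47 to 12.50 in KO. S100a9 (2.19, limma adjusted p = 0.0566), S100a8 (0.49, 0.357) and Mpo (0.24, 0.524) did not pass. S100a8 and Mpo overlapped between the genotypes, so the mean of the 4 does not show a shift in each of them. Camp and Ngp, the remaining 2 of the 6 neutrophil genes, were well above background on all 4 KO arrays and on no WT array, so they entered the test through KO alone. Their differences depended on the background correction, 4.74 and 3.96 against 1.44 and 1.17 under normexp. Of 5 fibroblast genes Dcn rose (0.50, limma adjusted p = 0.0257), with list means of 13.55 to 13.77 in WT and 13.88 to 14.45 in KO. Of 6 adipocyte genes only Plin1 passed, as higher (0.71, limma adjusted p = 0.0403), with list means of 12.50 to 13.28 in WT and 12.99 to 13.27 in KO. Of the 6, 5 were above 0 and Lep was below it (-0.73, limma adjusted p = 0.37). Of 6 T cell genes Cd3e and Cd4 fell, with list means of 6.02 to 7.11 in WT and 6.06 to 6.34 in KO, and of 4 B cell genes Cd79b rose. Of the B cell genes 2 were above 0 and 2 below, from -0.72 to 1.05. None of the 6 basal, 4 macrophage and 4 endothelial genes passed the test at an adjusted p under 0.05 (limma), with 1, 0 and 1 at an unadjusted p under 0.05. The calls of Krt18, Epcam, Plin1, Dcn, Cd3e, Cd4 and Cd79b were each lost in at least 7 of 17 alternatives. The part of these cell types in the values of Gabarapl1 and Ulk1 was not tested.

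The rest of the pathway was described from a list of 69 genes in 8 steps that contains the 10. On the array, 67 of the 69 were found, and 64 were tested. Of these 64, 4 rose (Gabarapl1, Ulk1, Calcoco1 and Prkaa1) and none fell at an adjusted p under 0.05 (limma), a smaller share than the 16.5% of all genes tested. An unadjusted p under 0.05 (limma) was found for 21 of the 64 and for 5136 of the 14137 genes tested. Counts of unadjusted p-values for the steps below are to be read beside that share of all genes. Differences were above 0 for 35 and below 0 for 29, with a median of 0.08, and the genotypes did not overlap for 11, in 9 of them with KO above WT, where all genes had 24.1% without overlap and 11.1% with KO above WT. With the replicate number as a block 9 of the 64 passed, and 19.5% of all genes: Vamp8 (0.43, limma adjusted p = 0.0392) and Atg16l2 (0.44, 0.0449) joined the 4 as higher, and Retreg1 (-0.57, 0.0228), Prkaa2 (-0.93, 0.0231) and Atg3 (-0.36, 0.0492) were lower. Without WT1 the count was also 9, with 21.7% of all genes, and it was 1 without WT2, WT3 or KO2. It was 0 without KO1 or KO3 (limma, 12 and 14 genes at an unadjusted p under 0.05, where all genes had 4272 and 4010).

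**Figure D4:**
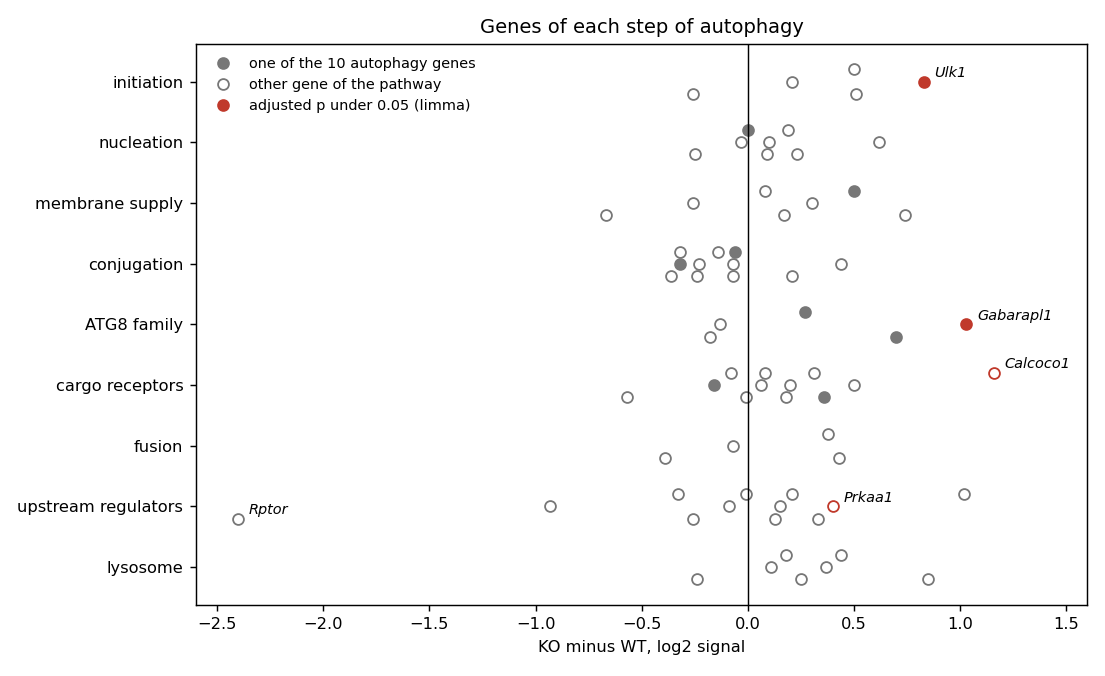
Difference between KO and WT in log2 signal for 71 tested genes of autophagy and the lysosome, 1 point a gene, grouped by step; filled points are the 10 autophagy genes and red marks an adjusted p under 0.05. The initiation genes lie mostly right of 0 (median 0.50) and the conjugation genes mostly left of it (median -0.14), Calcoco1 at 1.16 is the farthest right, and Rptor lies at -2.40, with KO4 at 1.67 and its other KO arrays at 10.39 to 10.53.

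Initiation was the step with the highest median, 0.50 over 5 genes, with 4 above 0 and Ulk1 the one that passed. Atg13 was below 0 (-0.26, limma adjusted p = 0.111). Rb1cc1, whose protein FIP200 holds the ULK1 complex together, gave 10.24, 9.74, 9.93 and 10.36 in WT and 10.51, 10.76, 10.48 and 10.51 in KO. Its KO values lay above its WT values, a difference of 0.50 (SE 0.15) that did not pass the test (limma adjusted p = 0.0575). Ulk2, the close relative of Ulk1, gave 8.20, 7.66, 7.87 and 8.33 in WT and 8.36, 8.51, 8.69 and 8.54 in KO, again without overlap (0.51, SE 0.16, limma adjusted p = 0.0609). With the mean of its probes the Ulk2 difference was 0.34 (limma adjusted p = 0.0919). Without WT4, Rb1cc1 (0.59, limma adjusted p = 0.0411) and Ulk2 (0.61, 0.0421) passed. Neither passed without any other single array, where the adjusted p (limma) reached 0.131 for Rb1cc1 and 0.151 for Ulk2. The 8 genes of nucleation, the step of the lipid kinase complex, had a median of 0.09, with 5 above 0 and none past the test (limma, 2 at an unadjusted p under 0.05). Its 2 smallest p-values belonged to Atg14, the subunit that directs the complex to autophagy (0.62, limma adjusted p = 0.108), and Rubcn, an inhibitor of a related complex (0.23, 0.113). With 1 array left out, the adjusted p of Atg14 ran from 0.0419 without WT1 to 0.228 without WT2 (limma). The 7 tested genes of membrane supply had a median of 0.17, 5 of them above 0, and none passed (limma, 2 at an unadjusted p under 0.05). There Wdr45, which encodes another WIPI protein, gave 11.55, 10.39, 11.16 and 11.04 in WT and 11.86, 11.86, 11.89 and 11.50 in KO. Only the KO4 value reached below a WT array, and the difference was 0.74 (SE 0.23, limma adjusted p = 0.0581). With 1 array left out, the adjusted p of Wdr45 ran from 0.0244 without WT1 to 0.135 without KO3 (limma).

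In conjugation, 9 of 11 genes were below 0 and 2 above, with a median of -0.14 and a range of -0.36 to 0.44, and none passed the test (limma, 3 at an unadjusted p under 0.05). Beside Atg5, the smallest p-value was that of Atg16l2, a relative of the protein that completes the ATG12-ATG5 complex, at 0.44 (limma adjusted p = 0.116, and 0.0449 with the replicate block). The difference between the medians of the steps was not tested. Within the ATG8 family the 2 genes outside the 10, Gabarap (-0.18, limma adjusted p = 0.268) and Gabarapl2 (-0.13, 0.761), were not above 0 as Gabarapl1 was. Gabarap gave 13.71 to 13.94 in WT and 13.49 to 13.80 in KO, and Gabarapl2 11.67 to 12.81 and 11.73 to 12.54, both with overlap. Whether Gabarapl1 differed from them in its response was not tested.

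Among 12 cargo receptors 8 were above 0 and 4 below, with a median of 0.13. Calcoco1, a receptor for parts of the endoplasmic reticulum and Golgi, gave 7.47, 6.27, 7.28 and 6.94 in WT and 8.04, 8.01, 8.15 and 8.43 in KO. All KO arrays lay above all WT arrays, with WT2 the lowest. The difference was 1.16 (SE 0.25), from 6.99 ± 0.53 to 8.16 ± 0.20 (SD, n = 4 each), and the adjusted p was 0.0221 (limma), the smallest of the pathway list. Its call was lost without KO1 (limma adjusted p = 0.0536) or KO3 (0.0625), in the methods' t-test (0.0547) and with slide position as a block (0.069). Optn, which encodes the receptor optineurin, gave 6.84 to 7.60 in WT and 7.71 to 7.93 in KO, without overlap, and did not pass (0.50, limma adjusted p = 0.0789). The 4 tested genes of fusion with the lysosome divided evenly, and none passed (limma, 1 at an unadjusted p under 0.05): Vamp8, a membrane fusion protein, gave 0.43 (limma adjusted p = 0.088) and its partner Snap29 gave -0.39 (0.142). With 1 array left out, the adjusted p of Snap29 ran from 0.0412 without WT1 to 0.312 without WT2 (limma).

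Upstream regulators showed the widest range, -2.40 to 1.02 over 12 genes, 6 above and 6 below 0, with a median of 0.06. The lower end of that range was Rptor and rested on 1 array. The catalytic subunits of AMPK, the energy sensor that activates ULK1, lay on opposite sides of 0. Prkaa1 gave 9.63, 9.51, 9.55 and 9.30 in WT and 9.88, 9.84, 10.07 and 9.82 in KO, without overlap, and rose by 0.40 (SE 0.11, limma adjusted p = 0.0403). That call was lost without any single array other than WT1, with adjusted p-values from 0.0512 to 0.112 (limma), and also with the mean of probes (0.0764), with no filter on dim probes (0.053) and with slide position as a block (0.144). Prkaa2 gave 12.23, 12.74, 12.29 and 12.92 in WT and 11.39, 11.35, 11.24 and 12.47 in KO. Of its KO arrays 3 lay below all WT arrays and KO4 lay among them. The difference was -0.93 (SE 0.29, limma adjusted p = 0.0586), and without KO4 it was -1.22 and passed (limma adjusted p = 0.0145). Prkaa2 did not pass without any other single array, with adjusted p-values from 0.0536 to 0.144 (limma). Rptor, which encodes the mTOR partner raptor, read 1.67 on KO4, not well above background, and 10.39 to 10.80 on the other 7 arrays. The Rptor difference was -2.40 (SE 1.84, limma adjusted p = 0.376) with KO4 and -0.21 without it. With the mean of its probes it was -1.40 (limma adjusted p = 0.29). Of 7 lysosomal genes, the end point of the pathway, 6 were above 0 and 1 below, with a median of 0.25 and a range of -0.24 to 0.85, and none passed the test (limma, 1 at an unadjusted p under 0.05).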

How the data were processed

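RNA from the mammary glands of 4 WT and 4 KO dams was hybridized to 8 one-colour arrays, 1 dam an array, grouped by the sample labels. Per the file headers, the deposited intensity of each spot came from Agilent Feature Extraction 10.7.3.1, background-subtracted and detrended within the array and not normalized between arrays. The deposited flags, coded 0 or 1, mark other properties of a spot, such as being well above background. A log2 table that the authors had quantile-normalized in GeneSpring was deposited too and served as an alternative: each column correlated with the log2 intensity of its array at r of at least 0.9985 and had a median of 6.33.

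Control spots were dropped, and log2 intensities were quantile-normalized between arrays using R 4.3.3 and limma 3.58.1. Outlier spots, 64 to 100 on each array, were removed before the spots of a probe were averaged. Of 41174 probes, 27479 matched 18749 symbols through a RefSeq table of GRCm38.p6. The array design names build mm9, so gene coordinates were not taken from that table. A probe needed to be well above background on each of the 4 arrays of WT, of KO or of both, and 67 matched probes lacking a value were dropped. The brightest probe stood for a gene, chosen without regard to genotype, and limma's p-values were Benjamini-Hochberg adjusted over 14137 genes. Probe values were adjusted over all probes that passed. The precision is limited by the number of arrays.

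Alternatives were 75th percentile scaling, normexp background correction with an offset of 50, no filter, the table of the authors, the mean of probes, unmatched probes kept, the replicate number as a block, the methods' t-test, each array left out and, chosen after seeing the data, slide position as a block. Normexp was planned on mean spot signals and was run on median spot signals. Arrays of the same replicate number had deviations from their genotype mean that correlated at 0.22, 0.16, 0.30 and 0.28, so the numbers were taken to pair the samples. Arrays of different numbers had a mean of -0.079, which taking deviations from a genotype mean by itself pushes below that of the same numbers once those are above 0. What a number shares is not given in the sources used here. Results with the replicate block rest on this pairing, which was read from the same data.

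The 10 genes, the 69-gene list, the lysosome list and the marker lists were chosen with earlier results of these data known. Named are the 10, Zbtb7b, genes of the 69 that passed the test, the 2 with the smallest p in each step, and markers that moved with a result. Ulk2, Atg13, Gabarap, Gabarapl2, Rptor, Retreg1 and Atg3 were named after their values had been seen. So were Csn2, Lalba, Elf5, Lep, S100a8, S100a9 and Mpo, and the genes of the closing section. A gene of the lysosome list is not reported here and was left out of that list. The fit was tested on simulated data.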

Additional observations from a re-analysis of the deposited data

Results flagged for a closer look

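In 14 of 150 groups of 4 arrays, 1 array stood far from the other 3 of its genotype, by Dixon's 95% limit for the gap over the whole range. The groups were those of 75 genes, the tested pathway genes, Zbtb7b and the markers named above apart from Csn2, Lalba, Elf5, Lep, S100a8, S100a9 and Mpo. Chance sets about 1 in 20 such groups apart. None of the 14 belonged to the 10 autophagy genes, and 7 were on KO4. On KO4, Rptor was at 1.67 against 10.39 to 10.53 on the other KO arrays, Prkaa2 at 12.47 against 11.24 to 11.39, Tfeb at 7.33 against 6.18 to 6.37, Wdr45 at 11.50 against 11.86 to 11.89, Krt18 at 16.58 against 16.99 to 17.02, Bnip3l at 11.42 against 11.65 to 11.69 and Atg12 at 11.22 against 11.41 to 11.44. On KO2, Foxo1 was at 13.32 against 12.33 to 12.44 and Rb1cc1 at 10.76 against 10.48 to 10.51. In WT, Tfeb was at 6.48 on WT2 against 6.26 to 6.30, Atg101 at 11.24 on WT2 against 11.67 to 11.74, Ncoa4 at 11.55 on WT3 against 11.37 to 11.38 and Fundc1 at 10.79 on WT4 against 10.63 to 10.65. Ngp was at 3.78 on WT2 against 1.93 to 2.21, none of the 4 values being well above background.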

How the results depend on the processing

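With 1 dam an array and 4 arrays a genotype, the calls of these genes lie near the threshold, and slide and genotype cannot be told apart. The number of the 10 genes called was 2 with all arrays, 2 under 75th percentile scaling, normexp, the table of the authors, unmatched probes kept and the replicate block, 1 with no filter, and 0 with the mean of probes (4 at an unadjusted p under 0.05), in the methods' t-test (5) and with slide position as a block (4). It ranged from 0 to 4 with 1 array left out. Of the 69-gene list, 4 were called, 9 with the replicate block, 2 with no filter, 1 in the methods' t-test and 0 with slide position as a block (13 at an unadjusted p under 0.05), and 0 to 9 with 1 array left out. Over all genes 2331 were called, with 5136 at an unadjusted p under 0.05. The methods' t-test called 1389 (4765 at an unadjusted p under 0.05), slide position as a block 137 (4059) and the mean of probes 2281 (5120). The replicate block called 2762, and 515 to 3070 were called with 1 array left out. Of called genes, 45.7% were higher in KO, against 56.9% with slide position as a block. Of the 6 other probes of the 10 genes none was called with limma (3 at an unadjusted p under 0.05) and 1 with the replicate block, which changed no call among the 10. Arrays of the same slide position correlated below 0 (-0.17 to -0.32). The sign changed for Becn1 under 75th percentile scaling (0.00), with the table of the authors (0.01) and among the values with 1 array left out (-0.07 to 0.05), for Atg7 under normexp (0.01) and among those with 1 array left out (-0.19 to 0.08), and for Gabarapl2 without WT4 (-0.30 to 0.08 over the arrays left out). For Gabarapl1, Ulk1, Wipi1, Map1lc3b, Map1lc3a, Sqstm1, Atg5 and Nbr1 it was the same in all 17 alternatives. The blocks and the t-test leave the difference itself unchanged, so they could not turn a sign. Leaving out 1 array could not turn it either where the genotypes do not overlap, as for Gabarapl1, Ulk1, Wipi1 and Atg5. Zbtb7b stayed called in all 17, from -8.67 to -4.23. The cause of these changes was not tested.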
